A study of Arabidopsis thaliana with 2 samples.

Results

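The 10 genes described here are the core of the iron deficiency response of Arabidopsis thaliana that signals low iron and takes up iron at the root: the peptide genes IMA1 (AT1G47400), IMA2 (AT1G47395) and IMA3 (AT2G30766), the ubiquitin ligase gene BTS (AT3G18290), the transcription factor genes PYE (AT3G47640), bHLH38 (AT3G56970), bHLH39 (AT3G56980) and FIT (AT2G28160), the ferric reductase gene FRO2 (AT1G01580) and the iron transporter gene IRT1 (AT4G19690). They were listed by locus, by a rule that holds no threshold on their values but was written with earlier results of these data known, and all 10 were among the 21825 loci with reads. Transcript levels came from RNA sequencing of whole seedlings, with 1 library from 35SARF18OE-2, a line that overexpresses ARF18, and 1 library from wild type, both of ecotype Col. ARF18 belongs to the auxin response factors, transcription factors that act on auxin-regulated genes. The line's name gives the 35S promoter, which is active in most plant tissues, and 1 line was sequenced. The labels give an age of 7 days in one field, and in another 4 days in darkness before 7 days in white light, for both groups. The ARF18 overexpression library held 6824188 counted reads and the wild-type library 7059226. With 1 library per genotype there is no spread between replicates and no test, so every difference below is one between these libraries.

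When iron is short, bHLH factors of subgroup IVc, among them ILR3, switch on the genes of the subgroup Ib factors bHLH38 and bHLH39 and those of PYE, BTS and the IMA peptides. The Ib factors pair with FIT in the root epidermis and turn on FRO2, which reduces ferric to ferrous iron at the root surface, and IRT1, which carries ferrous iron into the cell. BTS is an E3 ligase that marks IVc factors for degradation and so restrains the response, and the IMA peptides, which act in shoot and root, interfere with BTS.

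The coding sequences of the 3 peptide genes are shown because one of them, IMA1, had the highest ratio of the 8 genes that passed the filter on low levels described below, and because the similarity of IMA1 and IMA2 bears on how their reads can be told apart. Sequences are from the RefSeq TAIR10.1 genome and run 5′ to 3′, and capitals mark the longest in-frame run of aspartate codons. IMA1 lies at chr1:17385818-17385970 (plus strand), IMA2 at chr1:17383117-17383269 (plus) and IMA3 at chr2:13108068-13108211 (plus).
IMA1: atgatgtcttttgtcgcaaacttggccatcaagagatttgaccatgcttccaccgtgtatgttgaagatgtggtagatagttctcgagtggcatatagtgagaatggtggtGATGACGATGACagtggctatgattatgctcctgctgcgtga
IMA2: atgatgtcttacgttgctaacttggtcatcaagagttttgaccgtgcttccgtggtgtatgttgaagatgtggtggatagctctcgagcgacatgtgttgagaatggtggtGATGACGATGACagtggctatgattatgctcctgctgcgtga
IMA3: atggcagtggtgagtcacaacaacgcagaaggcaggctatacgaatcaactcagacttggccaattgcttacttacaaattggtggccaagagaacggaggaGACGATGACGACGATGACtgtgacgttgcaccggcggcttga
The run of aspartate codons is 4 codons long in IMA1 and in IMA2 and 6 codons long in IMA3. IMA1 and IMA2 are each 153 bases long, are identical at 136 of these bases (88.9%), and share their last 55 bases without a difference. A read wholly within that stretch cannot be assigned to one of the pair, and how the authors' counting treated such reads is not given in the sources used here. IMA1 and IMA2 are neighbours, 1876 bases apart, with a single annotated exon each.

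IMA1 was higher in the ARF18 overexpression library, BTS and FRO2 were lower, and IRT1 was slightly higher. For BTS and IRT1 the interval of the ratio included 1 once it was adjusted for transcript length. ARF18 itself, the check of the labels, had 472 counts in the overexpression library and 97 in wild type. Of the 10 iron genes, 8 had a mean level of 1 RPKM or more over both libraries (reads scaled to transcript length and library total); IMA3 and PYE were below. On the scale used to compare libraries, log2 of (RPKM + 1) in overexpression over wild type, 4 of these 8 were positive and 4 negative, with a median of 0.18, against 0.03 for all 15083 nuclear loci at that level. One of the 8, IMA1, was at least 2-fold higher, where 1.25% of the 15083 loci were, and 0 of the 8 were at least 2-fold lower, where 0.663% were. Count ratios, scaled to the library totals, carry a 95% exact conditional binomial interval that covers counting error only. That interval lay wholly above 1 for 2 of the 8 genes (IMA1 and IRT1) and wholly below 1 for 2 (BTS and FRO2). Among all 15083 loci the shares were 18.7% above and 15.6% below, so the counts among the iron genes are close to the background.

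**Figure D1:**
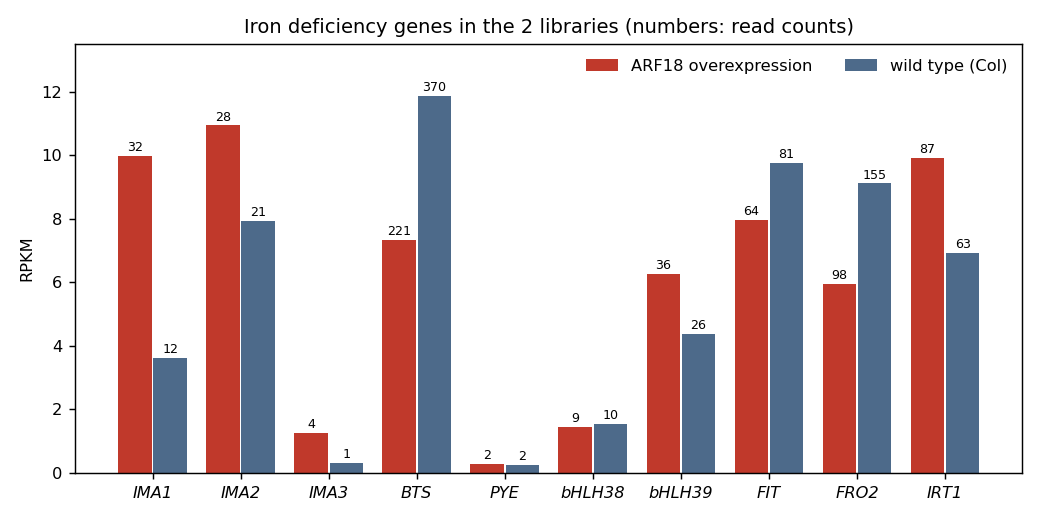
RPKM of each of the 10 iron genes (x axis) in the ARF18 overexpression library (red, left bar) and the wild-type library (blue, right bar), with the read count above each bar and no replicates. IMA1 is at 9.98 RPKM in the overexpression library against 3.62 in wild type, BTS at 7.34 against 11.9, and PYE is below 1 RPKM in both.

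The peptide genes all had ratios above 1, but of the 3 only IMA1 had an interval that excluded 1. IMA1 had 32 counts (9.98 RPKM) in the overexpression library and 12 counts (3.62 RPKM) in wild type. Its count ratio was 2.76 (1.38 to 5.88), its log2 ratio 1.25, and it ranked 83 from the top among the 15083 loci. IMA2 had 28 counts (10.9 RPKM) in the overexpression library and 21 counts (7.93 RPKM) in wild type, a ratio of 1.38 with an interval of 0.756 to 2.55. IMA1 made up 53.3% of the summed counts of the pair in the overexpression library (40.0 to 66.3, a 95% exact interval) and 36.4% in wild type (20.4 to 54.9). These intervals overlap, which does not decide whether the shares differ. A shift between the neighbours was not tested, and none is claimed at this depth. IMA3, on chromosome 2, had 4 counts in the overexpression library and 1 in wild type, and its ratio of 4.14 has an interval of 0.409 to 204, too wide to give a direction. IMA1 had a log2 ratio of 1.46 in the authors' deposited table at an FDR of 0.0141 and IMA2 0.46 at an FDR of 0.587. That FDR rests on an unnamed read-level test of this pair of libraries and says nothing of variation between plants. At an FDR of 0.05 or less the deposited table has 1 of the 11 transcript models of the iron genes as higher (IMA1; 8.09% of all 24295 models) and 2 as lower (BTS and FRO2; 7.17%).

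BTS, the ligase gene, was lower in the overexpression library. It lies at chr3:6273966-6280562 on the plus strand, with 14 annotated exons. It had 221 counts (7.34 RPKM) in that library and 370 counts (11.9 RPKM) in wild type, where it had the highest RPKM of the 10 genes. In the overexpression library that was IMA2, at 10.9 RPKM. The RPKM of IMA2 rests on a deposited length of 375 bases, while its reference gene, a single exon, spans chr1:17382998-17383830. The count ratio was 0.618 (0.521 to 0.732) and the log2 ratio -0.63. In the authors' deposited table its FDR was 2.16e-07. BTS has the longest transcript of the group, at 4414 bases, and the ratio between these libraries moves with transcript length over all genes, as described below.

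The transcription factor genes had ratios that their counts could not set apart from 1. This does not make their differences smaller: the ratio of bHLH39 was 1.43, as was that of IRT1, on fewer counts. FIT, the partner that root iron uptake depends on, had 64 counts (7.97 RPKM) in the overexpression library and 81 counts (9.76 RPKM) in wild type, a ratio of 0.817 (0.580 to 1.15). bHLH39 had 36 counts (6.26 RPKM) in the overexpression library and 26 counts (4.37 RPKM) in wild type, a ratio of 1.43 (0.841 to 2.47). bHLH38 had 9 counts (1.45 RPKM) in the overexpression library and 10 counts (1.55 RPKM) in wild type, a ratio of 0.931 (0.335 to 2.55). The intervals of all these genes included 1, and those of the bHLH pair allow more than a 2-fold difference. bHLH38 and bHLH39 lie 1144 bases apart on the minus strand of chromosome 3, and their coding sequences of 762 and 777 bases are identical at 83.1% of aligned positions, with a longest shared run of 34 bases. bHLH39 made up 80.0% of the counts of the pair in the overexpression library (65.4 to 90.4) and 72.2% in wild type (54.8 to 85.8). PYE, a factor that represses iron storage and transport genes, had 2 counts in each library, a ratio of 1.03 (0.0750 to 14.3). The reference annotation lists 3 transcripts for PYE but 1 model was counted. Summed counts had a median of 164 at loci with 1 annotated transcript, 55 at loci with 2 and 19 at loci with 3 or more. IMA3, FIT, FRO2 and IRT1 have 2 annotated transcripts each. What part this has in the levels of these genes and of PYE was not tested.

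The reductase and transporter genes that FIT turns on stood on opposite sides of 1. FRO2, at chr1:208995-213082 with 8 exons in its longest transcript, had 98 counts (5.96 RPKM) in the overexpression library and 155 counts (9.11 RPKM) in wild type. Its ratio was 0.654 (0.503 to 0.848), its log2 ratio -0.54, and its FDR in the authors' deposited table was 0.00814. IRT1, at chr4:10707344-10709015 with 3 exons, had 87 counts (9.91 RPKM) in the overexpression library and 63 counts (6.93 RPKM) in wild type, summed over 2 transcript models. Its ratio was 1.43 (1.02 to 2.01), with a lower limit close to 1. The longer model held 80 of the counts in the overexpression library and 58 in wild type, and the shorter one 7 and 5. In the authors' deposited table the longer model had an FDR of 0.176 and the shorter one 0.753. Each of these genes has a related neighbour with few reads: FRO1, 1067 bases from FRO2, had 2 counts in the overexpression library and 3 in wild type, and IRT2, 2505 bases from IRT1, had 4 and 3.

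**Figure D2:**
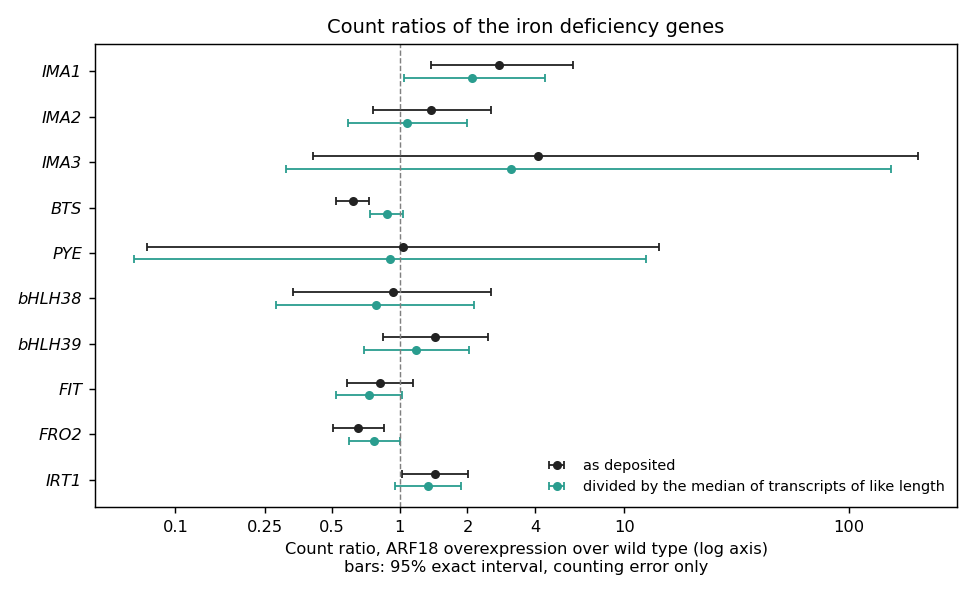
Count ratio of overexpression over wild type (x axis, log scale) for the 10 iron genes, with 95% exact intervals for counting error only, as deposited (black) and divided by the median ratio of transcripts of like length (green). IMA1 lies above 1 on both, the interval of BTS lies below 1 only as deposited, and those of IMA3 and PYE, with 1 to 4 counts per library, span more than the rest.

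Transcript length moved with the ratio across all genes, which bears on genes as short as the IMA peptides and as long as BTS. Spearman's rho between length and the log2 ratio was -0.52 over the 15083 loci, which share the same 2 libraries and are not independent replicates. BTS falls in the longest of 50 length bins (3974 bases or more), where the median log2 ratio was -0.43 and the interquartile range of 302 loci ran between -0.58 and -0.21. BTS at -0.63 was below that range, and relative to the bin median it stood at -0.20. Its count ratio divided by the bin's median ratio was 0.873, with an interval of 0.736 to 1.03 that includes 1. IMA1, with 470 bases in the deposited table, falls in a bin whose median was 0.38 and whose interquartile range ran between 0.16 and 0.58. Its reference gene, a single exon, spans chr1:17385707-17386485, so this bin rests on the deposited length. Relative to that median IMA1 stood at 0.87, and its adjusted count ratio was 2.09 (1.05 to 4.45). FRO2, in a bin with a median of -0.18, had an adjusted ratio of 0.769 (0.591 to 0.997), IRT1 1.34 (0.956 to 1.88) and FIT 0.730 (0.518 to 1.03). With this adjustment 1 of the 8 genes lay wholly above 1 (10.9% of all loci) and 1 wholly below (12.5% of all loci), and the median log2 ratio of the 8 turned to -0.06. The part of length in these differences was not tested further.

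**Figure D3:**
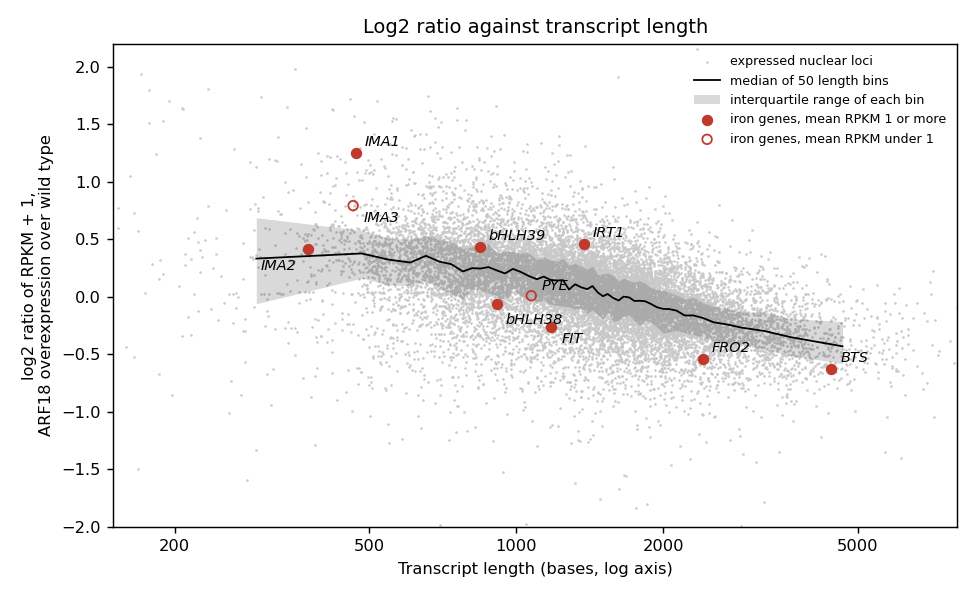
Log2 ratio of RPKM + 1, overexpression over wild type (y axis), against transcript length in bases (x axis, log scale) for expressed nuclear loci (grey; 91 lie outside the axes), with the median and interquartile range of 50 length bins. The iron genes (red; open where the mean RPKM is under 1) are labelled; IMA1 at 1.25 lies above the interquartile range of its bin and BTS at -0.63 just below that of the longest bin.

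The 250 bases before the annotated start are shown for IMA1, which was at least 2-fold higher, and its neighbour IMA2, for BTS, which was lower, and for the bHLH pair, because iron-responsive bHLH factors bind E-boxes (CANNTG), among them the G-box CACGTG. Capitals mark ACGTG on either strand, so that CACGTG, which contains it on both strands, is in capitals throughout. ACGTG without a leading C is not an E-box, so the capitals in IMA1 and IMA2 mark no E-box. CANNTG matches other than CACGTG are left in lower case: 2 each in IMA1 and IMA2 and 1 each in BTS and bHLH39. The windows are chr1:17385457-17385706 (IMA1, plus strand), chr1:17382748-17382997 (IMA2, plus), chr3:6273716-6273965 (BTS, plus), chr3:21085246-21085495 (bHLH38, minus) and chr3:21087711-21087960 (bHLH39, minus), in TAIR10.1.
IMA1: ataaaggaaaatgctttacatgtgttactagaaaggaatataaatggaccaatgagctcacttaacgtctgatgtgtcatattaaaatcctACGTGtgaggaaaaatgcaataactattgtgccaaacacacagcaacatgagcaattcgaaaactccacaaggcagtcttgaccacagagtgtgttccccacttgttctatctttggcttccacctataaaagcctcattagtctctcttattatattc
IMA2: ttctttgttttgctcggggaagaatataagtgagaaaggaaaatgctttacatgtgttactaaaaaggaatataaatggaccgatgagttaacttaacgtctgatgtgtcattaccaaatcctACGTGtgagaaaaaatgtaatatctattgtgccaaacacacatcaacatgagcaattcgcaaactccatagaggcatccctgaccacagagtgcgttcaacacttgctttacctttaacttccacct
BTS: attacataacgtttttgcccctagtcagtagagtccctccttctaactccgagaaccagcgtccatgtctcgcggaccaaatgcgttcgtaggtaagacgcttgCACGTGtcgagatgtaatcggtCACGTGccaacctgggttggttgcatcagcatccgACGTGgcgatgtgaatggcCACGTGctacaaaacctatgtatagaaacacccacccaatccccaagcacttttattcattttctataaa
bHLH38: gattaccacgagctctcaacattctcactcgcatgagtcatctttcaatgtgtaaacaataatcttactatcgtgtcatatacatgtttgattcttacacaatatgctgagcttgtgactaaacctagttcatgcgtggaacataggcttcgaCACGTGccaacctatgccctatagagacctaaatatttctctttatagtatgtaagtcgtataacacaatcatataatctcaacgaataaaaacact
bHLH39: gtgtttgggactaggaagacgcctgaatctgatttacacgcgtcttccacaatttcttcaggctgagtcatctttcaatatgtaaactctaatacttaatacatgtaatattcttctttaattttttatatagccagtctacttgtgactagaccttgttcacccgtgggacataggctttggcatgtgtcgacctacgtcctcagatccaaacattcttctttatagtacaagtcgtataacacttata
The BTS window holds CACGTG 3 times and the bHLH38 window once, and the windows of the other 8 genes hold none. Of the same windows of 27443 nuclear protein-coding genes, 6.49% hold CACGTG at least once and 0.0984% at least 3 times. ACGTG on either strand, which includes every CACGTG, occurs in 6 of the 10 windows and in 22.9% of all, and CANNTG in 7 of the 10 and in 55.3% of all. IMA1 and IMA2, with ratios of 2.76 and 1.38 whose intervals overlap, carry a single ACGTG each in like surroundings, and their windows are identical at 67.5% of aligned positions. Of the sequences known to be bound by auxin response factors, TGTCTC (either strand) occurs in the BTS window and in 10.9% of all windows, and TGTCGG in none of the 10 and in 4.16% of all. A match shows only that the letters are present, and no match says nothing of binding outside this window.

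Of 48 listed genes in 9 roles of iron signalling, uptake, transport and storage, 31 had a mean of 1 RPKM or more. At least 2-fold higher or lower were 0 of these, where 1.25% of all loci were higher and 0.663% lower. Their median log2 ratio was 0.04, against 0.03 for all 15083 loci, with 18 positive and 13 negative. Count ratio intervals lay wholly above 1 for 5 of the 31 (F6'H1, NAS4, NRAMP3, FER1 and FER3) and wholly below 1 for 5 (BTSL2, ABCG37, OPT3, YSL2 and NRAMP4), next to 18.7% and 15.6% of all loci. With length-adjusted intervals 8 of the 31 lay wholly above 1 (FRO4, FRO5, NRAMP1, AHA2, F6'H1, NRAMP3, FER1 and FER3) and 3 wholly below (ILR3, NAS1 and NRAMP4), next to 10.9% and 12.5% of all loci. NAS3, IREG2 and HMA3 have no entry among the loci with reads.

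Among the regulators, the subgroup IVb and IVc bHLH genes and the MYB genes of the root iron response had a median log2 ratio of 0.04 over 6 expressed genes, from -0.24 for bHLH104 to 0.49 for MYB10, and no interval excluded 1 as deposited. ILR3 had 1547 counts in the overexpression library and 1558 in wild type, a ratio of 1.03 whose interval included 1, and adjusted for length the ratio was 0.916 (0.854 to 0.984). MYB10 had 16 counts in the overexpression library and 10 in wild type, and URI, a bHLH factor that acts with subgroup IVc, had 14 and 10. bHLH101, a further Ib factor, had 6 counts in each. Of the BTS relatives, BTSL2 had 28 counts in the overexpression library and 64 in wild type, a ratio of 0.453 (0.279 to 0.716), and BTSL1 had 53 and 65, a ratio of 0.843 (0.576 to 1.23). Like BTS, both have long transcripts (4064 and 3904 bases), and adjusted for length their ratios were 0.640 (0.395 to 1.01) and 1.12 (0.766 to 1.64).

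Uptake and coumarin genes stood on both sides of 1 as deposited. Beside the 10 iron genes, 3 ferric reductase genes, 3 metal import and proton pump genes and 5 coumarin genes were expressed. Adjusted for length, the intervals of FRO4, FRO5, NRAMP1, AHA2 and F6'H1 among them lay wholly above 1, where 10.9% of all loci did. No interval of these genes then lay wholly below 1, where 12.5% of all loci did. FRO2, the reductase gene among the 10 iron genes, did lie wholly below 1, at 0.769 (0.591 to 0.997). The reductase genes FRO4 and FRO5, neighbours with similar sequences whose reads may be shared, had 83 and 122 counts in the overexpression library against 64 and 97 in wild type, ratios of 1.34 (0.957 to 1.89) and 1.30 (0.988 to 1.72). Adjusted for length these were 1.54 (1.098 to 2.17) and 1.42 (1.08 to 1.87). FRO8 was at 0.905 (0.584 to 1.40). The metal importer gene NRAMP1 had 561 counts in the overexpression library and 526 in wild type, with an interval of the ratio of 0.978 to 1.25, and a length-adjusted ratio of 1.14 (1.01 to 1.28). The zinc and iron transporter IRT3 was at 0.966 (0.871 to 1.07) and the proton pump gene AHA2, which acidifies the root surface, at 1.04 (0.978 to 1.11), or 1.33 (1.25 to 1.41) adjusted for its length of 3304 bases. F6'H1, the entry enzyme of the coumarins that roots release to mobilise iron, had 222 counts in the overexpression library and 175 in wild type, a ratio of 1.31 (1.07 to 1.61). The coumarin exporter gene ABCG37 had 338 and 428, a ratio of 0.817 (0.706 to 0.944), which became 1.15 (0.998 to 1.33) adjusted for its length of 4565 bases. CYP82C4, of the same pathway, was at 1.13 (0.820 to 1.55).

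Transport genes likewise stood on both sides of 1 as deposited. NAS4, which makes the metal chelator nicotianamine, had a ratio of 1.27 (1.14 to 1.41), while the phloem iron transporter gene OPT3 had 0.805 (0.756 to 0.856) and YSL2 0.871 (0.799 to 0.949). Adjusted for length, the intervals of these genes included 1: NAS4 was at 1.09 (0.981 to 1.22), OPT3 at 0.946 (0.889 to 1.01) and YSL2 at 1.02 (0.939 to 1.12). NRAMP3 and NRAMP4, which release iron from the vacuole, had ratios of 1.39 (1.08 to 1.80) and 0.824 (0.742 to 0.916). The 4 ferritin genes, which encode iron storage proteins, all had log2 ratios above 0 (median 0.38, or 0.18 adjusted for length), as did 8119 of the 15083 loci. FER1 had 2017 counts in the overexpression library and 1345 in wild type, FER3 876 and 646, FER2 60 and 50, and FER4 218 and 196. The ratio of FER1 was 1.55 (1.45 to 1.66), or 1.44 (1.35 to 1.55) adjusted for length. That of FER3 was 1.40 (1.27 to 1.56), or 1.21 (1.09 to 1.34) adjusted. The intervals of FER2 (0.839 to 1.84) and FER4 (0.944 to 1.40) included 1, and FER4 stood at 0.01 on the log2 scale adjusted for length and at -0.05 adjusted for length and GC content.

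**Figure D4:**
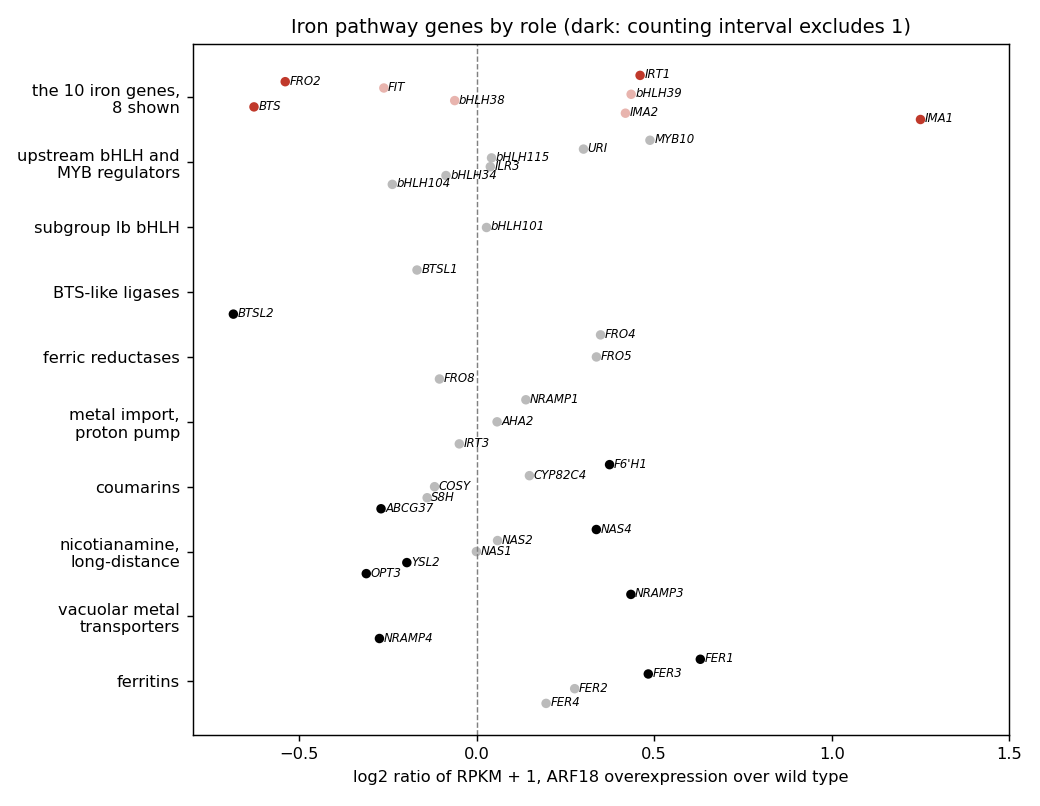
Log2 ratio of RPKM + 1, overexpression over wild type (x axis), for iron genes with a mean of 1 RPKM or more, by role (rows): the iron deficiency genes (red, 8 of 10) and 31 other pathway genes (black and grey). Dark points have a counting interval of the count ratio that excludes 1; they lie on both sides of 0 among the iron deficiency, coumarin, nicotianamine and long-distance, and vacuolar genes, and IMA1 is the highest at 1.25.

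FIT, FRO2 and IRT1 are genes of the root epidermis, so root and shoot markers were read beside them. All 16 root markers had reads in both libraries. The 8 markers of root epidermis and root hairs summed to 150.1 RPKM in the overexpression library and 139.8 in wild type, with log2 ratios from -1.27 to 0.98 and a median of 0.38 over the 7 expressed. The 8 markers of inner root tissues and the root tip summed to 343.8 RPKM in the overexpression library and 292.2 in wild type. Their log2 ratios ran from -0.62 to 1.33 (5 positive, 3 negative), with a median of 0.17. That sum leans on single genes: CASP1 was at 158.9 RPKM in the overexpression library and 88.5 in wild type, and PHO1 at 81.1 and 105.7. Of 8 shoot markers 7 had reads, and FAMA, of the stomatal lineage, had no entry; they summed to 1971 RPKM in the overexpression library and 2059 in wild type, with a median of -0.17 over the 6 expressed. Adjusted for length, the medians were 0.13 for root epidermis, 0.26 for inner root and -0.17 for shoot. Summed raw counts, scaled neither to library totals nor to transcript length, were lower in the overexpression library for each list. They were 1303 there and 1424 in wild type for root epidermis. For inner root they were 3713 and 3969, and for shoot 13843 and 14948. The higher RPKM sums of the root markers were thus not seen in their raw counts. The part of these markers in the differences of FIT, FRO2 and IRT1 was not tested. In whole seedlings, fewer cells of a type and less RNA per cell cannot be told apart.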

How the data were processed

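RNA from whole seedlings of an ARF18 overexpression line and of wild type was sequenced as 1 library each. The authors deposited raw read counts and RPKM per transcript model, with TAIR 10 as the genome build, per the submitters' processing notes; aligner, counter and strandedness are not stated in these sources. The deposited RPKM values were recomputed from counts, transcript length and library total to within 3e-06 percent. Where no read was counted the authors wrote 0.01 RPKM, taken here as 0. The log2 ratio, p-value and FDR in the authors' deposited table are the authors' own; their test is not named and used reads of these libraries only.

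The 24295 transcript models were summed to 21825 loci. Ratios are log2 of (RPKM + 1), which understates low genes, and scaled count ratios with 95% exact conditional binomial intervals. Reads are not independent molecules, so intervals cover counting error only. Loci with a mean of 1 RPKM or more were compared at 2-fold. The length adjustment subtracts the median of 50 bins of transcript length; for count ratios, 0.5 was added to each count to form the bin medians. The members and gene lists were chosen with earlier results of these data known. Named were all 10 genes, ARF18, and up to 3 genes per role with the largest absolute log2 ratio; genes counted in groups of 5 or fewer are named as well. Positions and sequences are from RefSeq TAIR10.1, whose gene models can differ in length from those in the deposited table. The steps were tested on simulated counts. Python 3.11.15, numpy 2.4.6, pandas 2.3.3, scipy 1.17.1, matplotlib 3.10.9, biopython 1.88, R 4.3.3 and edgeR 4.0.16 (TMM factors only) were used.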

Additional observations from a re-analysis of the deposited data

How the results depend on the processing

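No paired analysis was possible because there was only 1 library for each genotype. IMA1 had a positive log2 ratio under every setting tried, from 0.80 (pseudocount of 5 RPKM) to 1.46 (count ratio, no pseudocount), and FRO2 a negative one, from -0.61 to -0.36. BTS, at -0.63 as reported, was at -0.20 adjusted for transcript length and at -0.21 adjusted for length and GC content. With a pseudocount of 5 RPKM, and with either adjustment, 0 of the iron genes were at least 2-fold higher. At 1.5-fold 1 was higher and 1 lower. No share of all loci was computed at 1.5-fold or with another pseudocount, for the iron genes or the other pathway genes. Those counts therefore have no background to be read against. By intervals that exclude 1, 2 were higher and 2 lower, and with the length-adjusted interval, chosen after seeing the data, 1 was lower. Their median of 0.18 was -0.06 and -0.04 with the adjustments. Of the other pathway genes, 1 was lower with a pseudocount of 0.1 RPKM, 1 was higher and 1 lower at 1.5-fold, 5 higher and 5 lower by intervals, and 8 higher and 3 lower by length-adjusted intervals, which 10.9% and 12.5% of all loci passed. Depth limits IMA3, PYE and bHLH38, with 1 to 10 counts per library.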
